A study of Mus musculus with 26 samples.

Results

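Jun, Fosb, Atf3, Btg2, Zfp36 and Ier5 are immediate early genes, and their transcripts were followed in germ cells and somatic cells of the fetal mouse ovary. The 6 genes were taken by name from the 16344 genes read completely in the deposited count table. Their levels were set against the sort gate, the stage and the library of each cell. Single cells came from female gonads of mice that carried the reporters Blimp1-mVenus and Stella-ECFP, together called BVSC, at 8 stages, E11.5 to E18.5, with the day of the plug as E0.5. Cells of the BVSC gate (1302 cells in 18 libraries) were read as positive for both reporters, those of the BV gate (50 cells in 3 libraries) as carrying the Blimp1 reporter alone, and those of the Negative gate (529 cells in 18 libraries) as carrying neither. All gates therefore share the transgenes, the dissection and the digestion, in which gonads of several embryos per stage were combined, treated with 0.05% trypsin at 37 °C, sorted and picked by mouth into lysis buffer. No undissociated tissue was measured, so whether a level arose before or during dissociation was not tested.

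Immediate early genes are switched on within minutes of a growth factor, stress or tissue injury, without new protein synthesis. Kinase cascades reach factors already bound at their promoters, such as serum response factor with its ELK partners and the CREB and ATF family, and the short-lived messages then fall again. Several of their products are subunits of AP-1, a dimeric transcription factor, and others shorten the life of messages or damp the signal. Enzymatic digestion of tissue is known to induce them in many cell types, and in the adult ovary they are known as part of the response of granulosa cells to the ovulatory hormone surge.

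All 6 genes are transcribed from the minus strand of mm10: Jun at chr4:95049034-95052222, Fosb at chr7:19302696-19310051, Atf3 at chr1:191170296-191218039, Btg2 at chr1:134075170-134079120, Zfp36 at chr7:28376784-28380253 and Ier5 at chr1:155096361-155099636. Jun and Ier5 have 1 exon each. On the opposite strand the annotation places Junos over Jun and Gm44710 over Zfp36, and the strand setting of the counting is not given in the sources used here, so reads of these partners cannot be told apart.

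In such genes the promoter carries the elements through which the signal is read, so the 250 bases before the RefSeq start are shown for the 3 members that held an AP-1-type, cyclic AMP or serum response element (GRCm38.p6, minus strand, 5' to 3', element in capitals). In Jun (chr4:95052223-95052472) the capitals mark TGACATCA, the variant known from the JUN promoter as a site of JUN and ATF dimers, at bases -45 to -38 from the start. In Btg2 (chr1:134079156-134079405) they mark the cyclic AMP response element TGACGTCA at bases -166 to -159. In Zfp36 (chr7:28379229-28379478) they mark a CArG box, the element of serum response factor, at bases -58 to -49.
Jun: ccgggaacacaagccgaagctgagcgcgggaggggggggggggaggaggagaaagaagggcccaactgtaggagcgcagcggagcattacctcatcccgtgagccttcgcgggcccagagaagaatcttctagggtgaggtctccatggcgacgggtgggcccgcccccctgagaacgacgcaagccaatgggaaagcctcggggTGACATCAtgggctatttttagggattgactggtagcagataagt
Btg2: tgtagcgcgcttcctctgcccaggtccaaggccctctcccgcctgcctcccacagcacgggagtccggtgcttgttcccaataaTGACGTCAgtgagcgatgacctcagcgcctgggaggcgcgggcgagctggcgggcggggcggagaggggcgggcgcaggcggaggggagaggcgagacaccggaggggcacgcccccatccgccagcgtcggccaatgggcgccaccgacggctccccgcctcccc
Zfp36: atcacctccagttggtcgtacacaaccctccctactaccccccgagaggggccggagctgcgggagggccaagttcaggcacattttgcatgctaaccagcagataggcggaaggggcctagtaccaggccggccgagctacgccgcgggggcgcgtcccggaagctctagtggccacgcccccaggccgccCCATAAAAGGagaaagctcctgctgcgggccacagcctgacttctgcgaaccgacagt
Over the 300-base windows of 32851 promoters, searched on both strands, TGACATCA was found in 3.62%, TGACGTCA in 1.79% and a CArG box in 1.63%. TGACTCA, the classical AP-1 element (5.2% of promoters), was in the window of none of the 6 genes, and neither was TATAAA on the sense strand. Fosb, Atf3 and Ier5 held none of these 5 elements, which says only that the letters are not in this window. The common GC box GGGCGG (35.7% of promoters) was in the windows of all 6 genes and CCAAT (37.4%) in those of Jun, Atf3, Btg2 and Ier5, and in Zfp36 a GC box shares base -58 with the CArG box. The messages of this class are also known for AU-rich elements in their 3' ends, to which the Zfp36 product binds. The shorter ATTTA was in the 3' UTR of all 6 members: 5 in Btg2, 4 in Jun, 3 each in Atf3 and Zfp36, 2 in Ier5 and 1 in Fosb. The median over 8469 tested genes with a 3' UTR was 2, with no account taken of length. Of the 6 members, Zfp36 alone held the longer nonamer TTATTTATT in its 3' UTR, as did 8.32% of these genes. Its surrounding bases are shown with the nonamer in capitals.
Zfp36 3' UTR: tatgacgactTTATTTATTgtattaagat

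UMI counts were summed over the cells of a library, stage and gate, which gave 18 BVSC pools (26 to 96 cells, 4743602 to 27498626 UMIs) and 17 Negative pools (8 to 48 cells, 700825 to 13141802 UMIs). Levels are in CPM, the usual scaling of counts to a common total, here the deposited UMI total of a cell or a pool. A cell had a median of 248294 UMIs in BVSC cells and 169412 in Negative cells. All 96 barcode names recur across libraries, and no cells had identical counts. The 15 germ markers in the table, such as Mael and Sycp3, summed to 1533 to 5679 CPM in BVSC pools and to 24.8 to 1160 CPM in Negative pools. The 11 early gonadal somatic markers, such as Wt1 and Col1a2, summed to 14.8 to 308 CPM (median 39.4) in BVSC pools and to 1563 to 2793 CPM (median 2340) in Negative pools, and 0 to 4 of them were at 0 in a BVSC pool against 0 in every Negative pool. The gates thus followed their labels. Immune markers spanned 3.45 to 557 CPM in BVSC pools and 0.363 to 645 CPM in Negative pools, and endothelial markers spanned 4.85 to 42.2 CPM in BVSC pools and 35.8 to 135 CPM in Negative pools. Their part in the levels below was not tested.

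Jun, Fosb, Atf3, Btg2 and Zfp36 were lower in BVSC cells than in Negative cells, with log2 fold changes of -4.65 to -3.64, while Ier5 was low in both gates and did not pass the test. Over all genes the same test called 25.8% lower and 38.7% higher in BVSC pools, and the median log2 fold change of the 9805 tested genes was 0.34. The members were taken up with this pattern already known, so their p-values are no independent support of it. The labels do not say whether libraries came from separate animals, and p-values therefore set a difference against the spread between libraries. In pooled counts, fewer cells with a transcript and fewer transcripts per cell cannot be told apart, so shares of cells are given further on.

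Among the AP-1 subunits, Jun, the central AP-1 protein, had a lowest, median and highest level of 5.01, 37.6 and 236 CPM in BVSC pools, against 314, 850 and 1209 CPM in Negative pools. Every BVSC pool lay below every Negative pool. The mean was 54.9 ± 57.1 CPM in BVSC pools (SD, n = 18) and 795 ± 254 CPM in Negative pools (SD, n = 17), a log2 fold change of -4.08 ± 0.23 (SE, edgeR quasi-likelihood test, adjusted p = 2.1e-16). Fosb, a FOS family protein that pairs with JUN, had a lowest, median and highest level of 1.21, 7.47 and 60.2 CPM in BVSC pools, against 94.4, 320 and 648 CPM in Negative pools. Again no pools of the gates overlapped. Its log2 fold change was -4.65 ± 0.33 (SE, edgeR adjusted p = 3.4e-14), from means of 16.1 ± 17.7 CPM in BVSC pools and 327 ± 153 CPM in Negative pools (SD).

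Atf3, a stress-induced ATF family member that also dimerises with JUN, varied widely in both gates. Its lowest, median and highest level were 0.0377, 6.13 and 56.8 CPM in BVSC pools, against 11.6, 159 and 672 CPM in Negative pools. The lowest BVSC value stands for 1 UMI in 71 cells (E12.5, library 8). The gates overlapped, because 5 Negative pools, at 11.6 to 56.1 CPM, lay below the highest BVSC pool, that of library 20 at E16.5. The log2 fold change was -4.18 ± 0.58 (SE, edgeR adjusted p = 1.7e-07).

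Of the members that act on messages, Btg2, an antiproliferative protein that brings the CCR4-NOT deadenylase to messages, had a lowest, median and highest level of 18.5, 40.8 and 224 CPM in BVSC pools, against 394, 762 and 1382 CPM in Negative pools. Its pools did not overlap, and its log2 fold change was -3.94 ± 0.24 (SE, edgeR adjusted p = 8.4e-16). Zfp36, the gene of tristetraprolin, which binds AU-rich elements and speeds decay, had a lowest, median and highest level of 5.43, 17.48 and 73.4 CPM in BVSC pools, against 23.7, 341 and 668 CPM in Negative pools. Its groups overlapped only through the Negative pool of library 1 at E11.5 (23.7 CPM), which the 4 BVSC pools of E16.5 and E17.5 exceeded. Its log2 fold change was -3.64 ± 0.26 (SE, edgeR adjusted p = 6.8e-14).

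Ier5, a serum- and stress-inducible gene whose product is known to act on the heat shock factor Hsf1, was the exception. Its lowest, median and highest level were 2.46, 5.43 and 14.7 CPM in BVSC pools, against 0, 8.71 and 118 CPM in Negative pools. The groups overlapped widely, and the log2 fold change of -0.58 ± 0.40 (SE) had an edgeR adjusted p of 0.209. The highest Negative pool was that of library 2 at E11.5. Without it the Negative mean was 8.29 ± 4.39 CPM (SD, n = 16), close to the BVSC mean of 6.61 ± 3.50 CPM (SD, n = 18). The value of 0 was that of the Negative pool of library 26 at E18.5, where 3 counts would give 0.963 CPM. Genes whose BVSC pools all lay below all Negative pools made up 3.19% of the genes tested, and 3 of the 6 members (Jun, Fosb and Btg2) were among them.

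**Figure D1:**
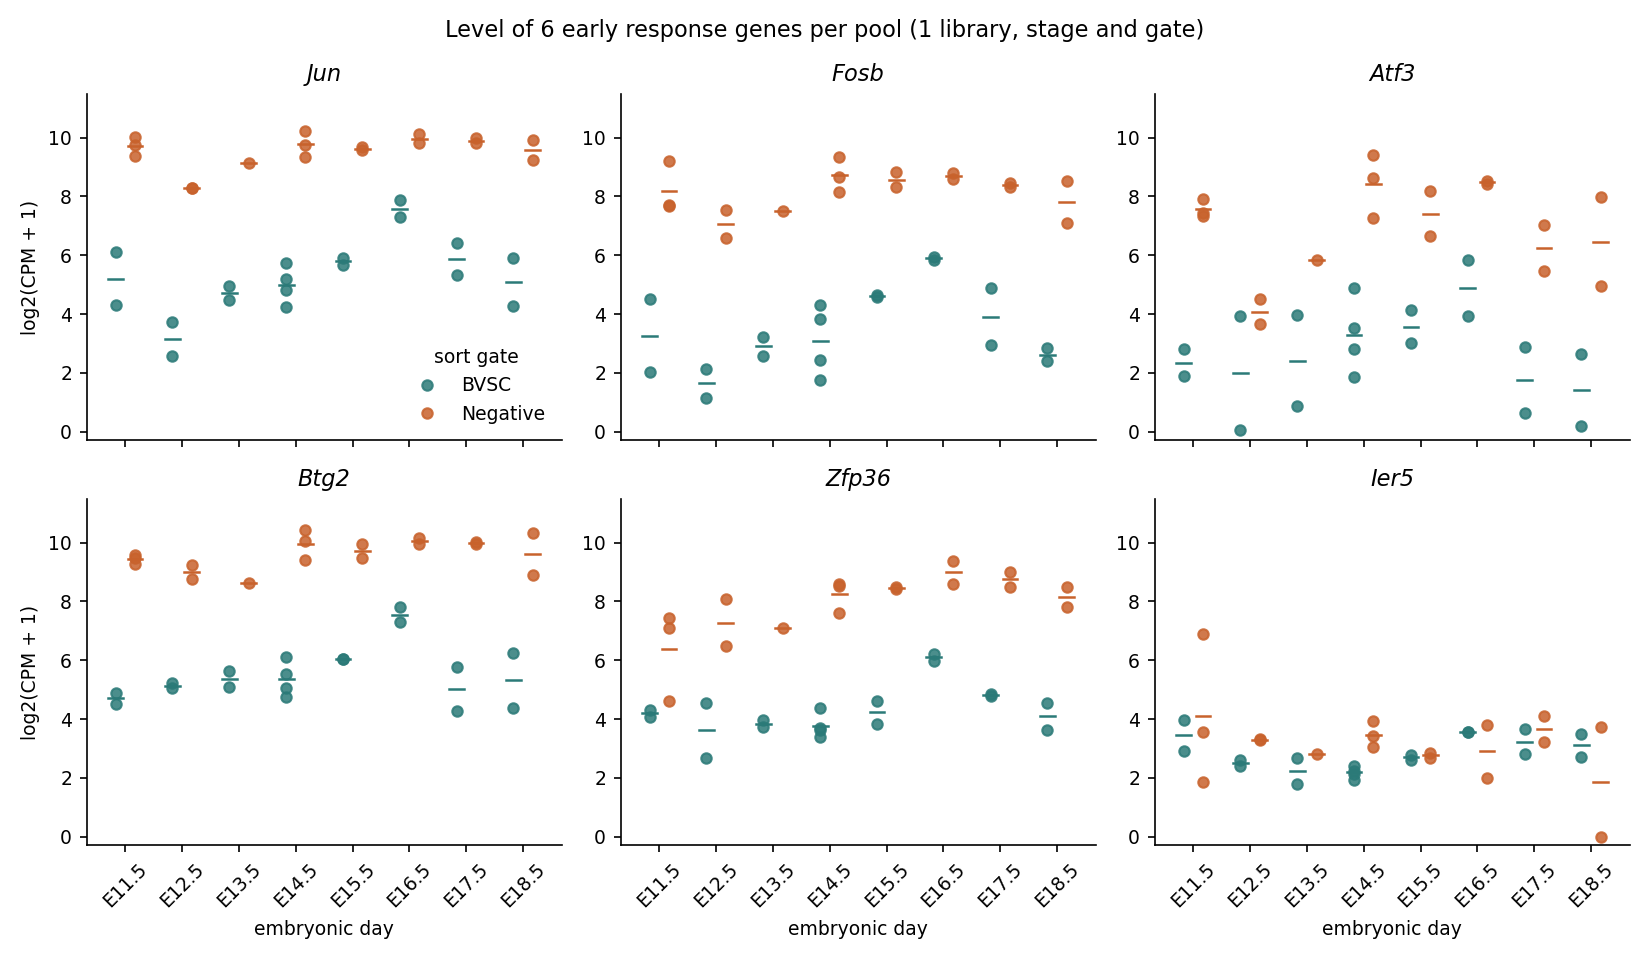
Level of each of the 6 genes in every pool, as log2(CPM + 1) on the vertical axis against the embryonic day, for the BVSC gate (left of each day) and the Negative gate (right). Points are pools of 1 library, and horizontal lines are means. Jun, Fosb and Btg2 pools of the gates do not overlap, the BVSC pools of E16.5 are the highest for Jun, Fosb, Btg2 and Zfp36, and those of Ier5 overlap at 5 of 8 stages.

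Both gates were present in 10 libraries, and 10 of 10 had lower Jun, Fosb, Atf3, Btg2 and Zfp36 in their BVSC pool. In the remaining libraries the library and the gate cannot be told apart. As a percent of the Negative pool of the same library, the BVSC pool had a median of 4.10% of its Jun (range 1.60% to 9.39%), 2.31% of its Fosb (1.28% to 10.5%) and 4.97% of its Btg2 (1.88% to 8.42%). Zfp36 stood at 7.06% (5.09% to 80.2%) and Atf3 at 1.77% (0.324% to 66.5%). The high ends of the last pair came from library 1 at E11.5 for Zfp36 and library 9 at E12.5 for Atf3, where the Negative pool was low. Ier5 stood at 70.8% (29.1% to 557%, 9 libraries with a UMI in the Negative pool). The early gonadal somatic markers, measured the same way, stood at 1.82% (0.733% to 6.48%). Jun exceeded that ratio in 10 of 10 libraries, Zfp36 in 9, Fosb and Btg2 in 8 each, Atf3 in 5 of 10 and Ier5 in 9 of 9.

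At single stages, 4 or 5 of the 6 members were called lower in BVSC pools and none higher, with the spread shared over all pools. The count was 5 at E11.5 (10.4% of all genes lower), 4 at E12.5 (10.4%), 4 at E13.5 (5.3%), 5 at E14.5 (17.1%), 4 at E15.5 (11.3%), 4 at E16.5 (10.1%), 5 at E17.5 (12%) and 5 at E18.5 (11.46%). The share of all genes called higher at these stages, in the same order, was 16.1%, 13.1%, 2.37%, 19.5%, 9.83%, 10.2%, 7.02% and 8.95%. Ier5 was called at no stage. Jun, Fosb, Btg2 and Zfp36 were called at all 8, and Atf3 missed the threshold at E12.5, E13.5, E15.5 and E16.5. Without library 7 the count at E11.5 was 3, without library 25 that at E17.5 was 3, and without library 22 that at E16.5 was 1. E13.5 rested on 1 Negative pool.

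The smallest differences of Jun and Btg2 were at E16.5, where no library held both gates, so gate and library cannot be told apart. The BVSC pools of that stage held 236 and 155 CPM of Jun, against 1110 and 901 CPM in the Negative pools, a log2 fold change of -2.37 ± 0.54 (SE, edgeR adjusted p = 0.0024). They held 224 and 156 CPM of Btg2, against 1133 and 984 CPM in the Negative pools, a log2 fold change of -2.48 ± 0.56 (SE, edgeR adjusted p = 0.0019). Thus both E16.5 BVSC pools exceeded every BVSC pool of other stages for these genes, and the Negative pools of that stage lay above the median of their gate. The early gonadal somatic markers summed to 308 and 183 CPM in the same BVSC pools, the highest values of that gate.

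**Figure D2:**
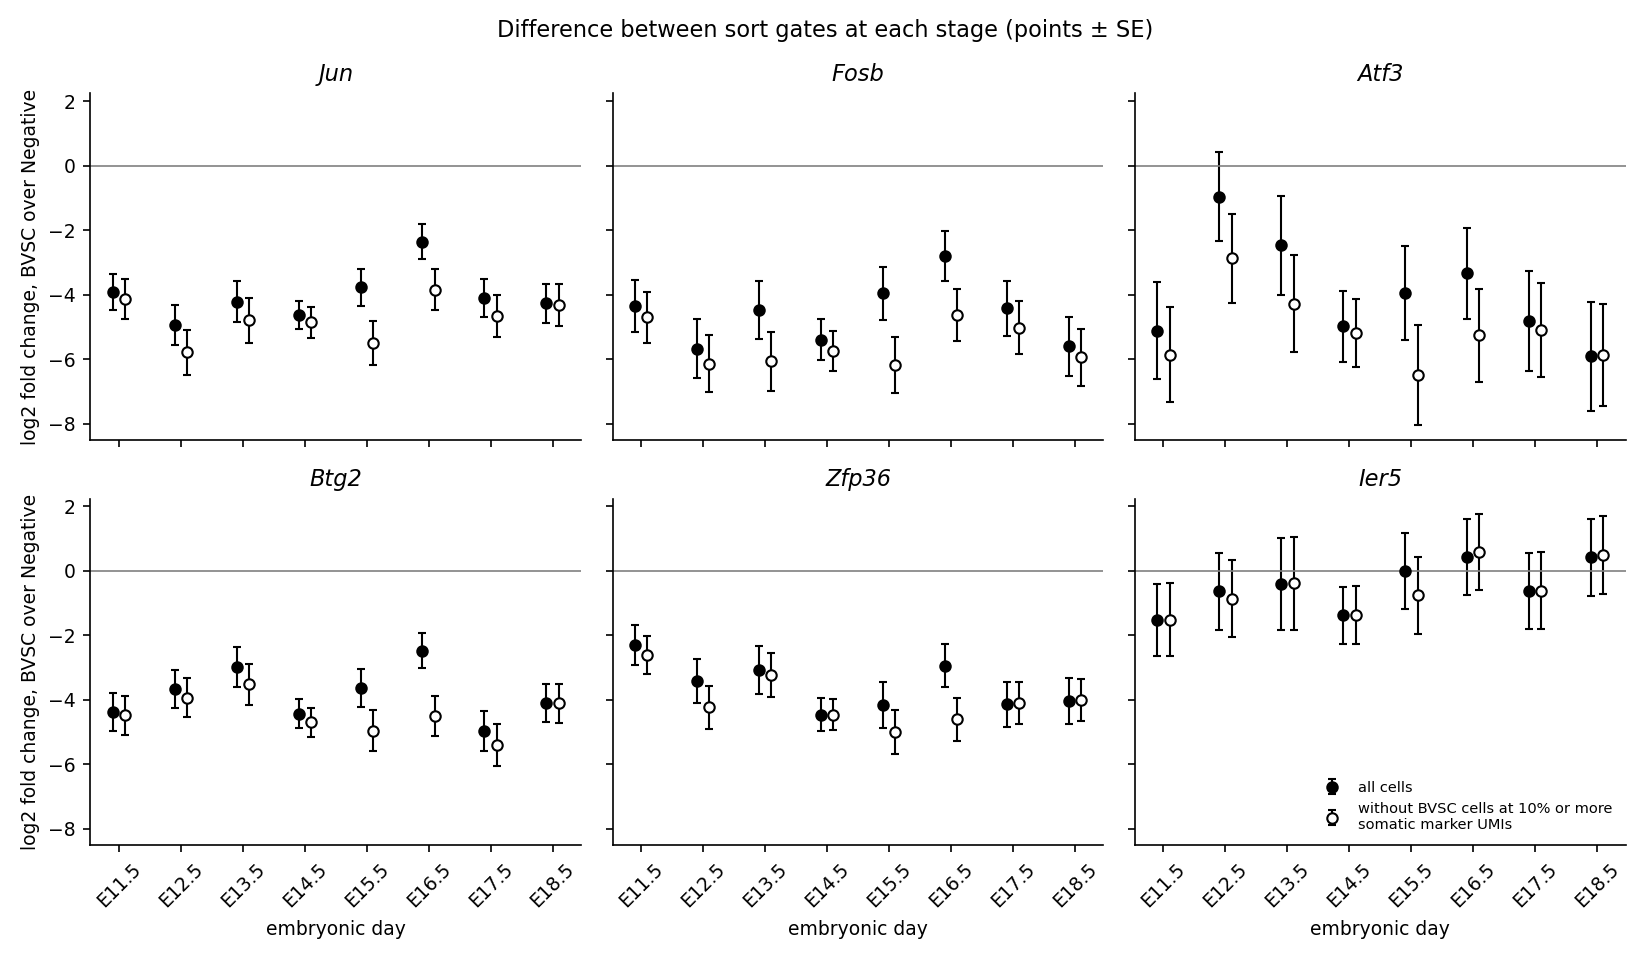
Log2 fold change of BVSC over Negative pools at each embryonic day, with SE bars, for all cells (filled circles) and without the BVSC cells in which somatic markers gave 10% or more of the marker UMIs (open circles). With all cells Jun stands at -2.37 at E16.5, and at -3.84 without those cells.

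A small set of BVSC cells carried much of what the BVSC gate held. In 67 BVSC cells of 13 libraries (5.15% of the gate) at least 10% of the germ and somatic marker UMIs came from somatic markers. This limit was set after seeing the data. These cells contributed 50.8% of all Jun counts of the gate, 60.2% of Fosb, 63.6% of Atf3, 48.6% of Btg2 and 37.4% of Zfp36, but 9.74% of Ier5. Their median cell held 746 CPM of Jun, against 12.4 CPM in the other 1235 BVSC cells and 879 CPM in Negative cells. For Btg2 the median cell held 811 CPM, against 11.6 CPM in the other BVSC cells and 922 CPM in Negative cells, and for Fosb 210 CPM, against 2.34 and 331 CPM. The median UMI count was 186517 in the 67 cells and 253920 in the others. No doublet caller was run, and the part of doublets in these cells was not tested.

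The level did not climb evenly with the somatic share. The median Jun level was 9.89 CPM in 908 BVSC cells under 1%, 20.8 CPM in 234 cells at 1 to 2% and 22.2 CPM in 82 cells at 2 to 5%. It then stood at 510 CPM in 11 cells at 5 to 10%, 606 CPM in 36 cells at 10 to 25% and 942 CPM in 31 cells at 25% or more. Cells of the 3 lowest bins were thus far below those of the 3 highest, with the bin at 5 to 10% resting on 11 cells of 9 libraries. The median Ier5 level was 0 CPM in every bin. In 14 BVSC cells of 8 libraries, somatic marker UMIs outnumbered germ marker UMIs, and their median levels were 1034 CPM for Jun, 1299 CPM for Btg2 and 216 CPM for Zfp36.

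**Figure D3:**
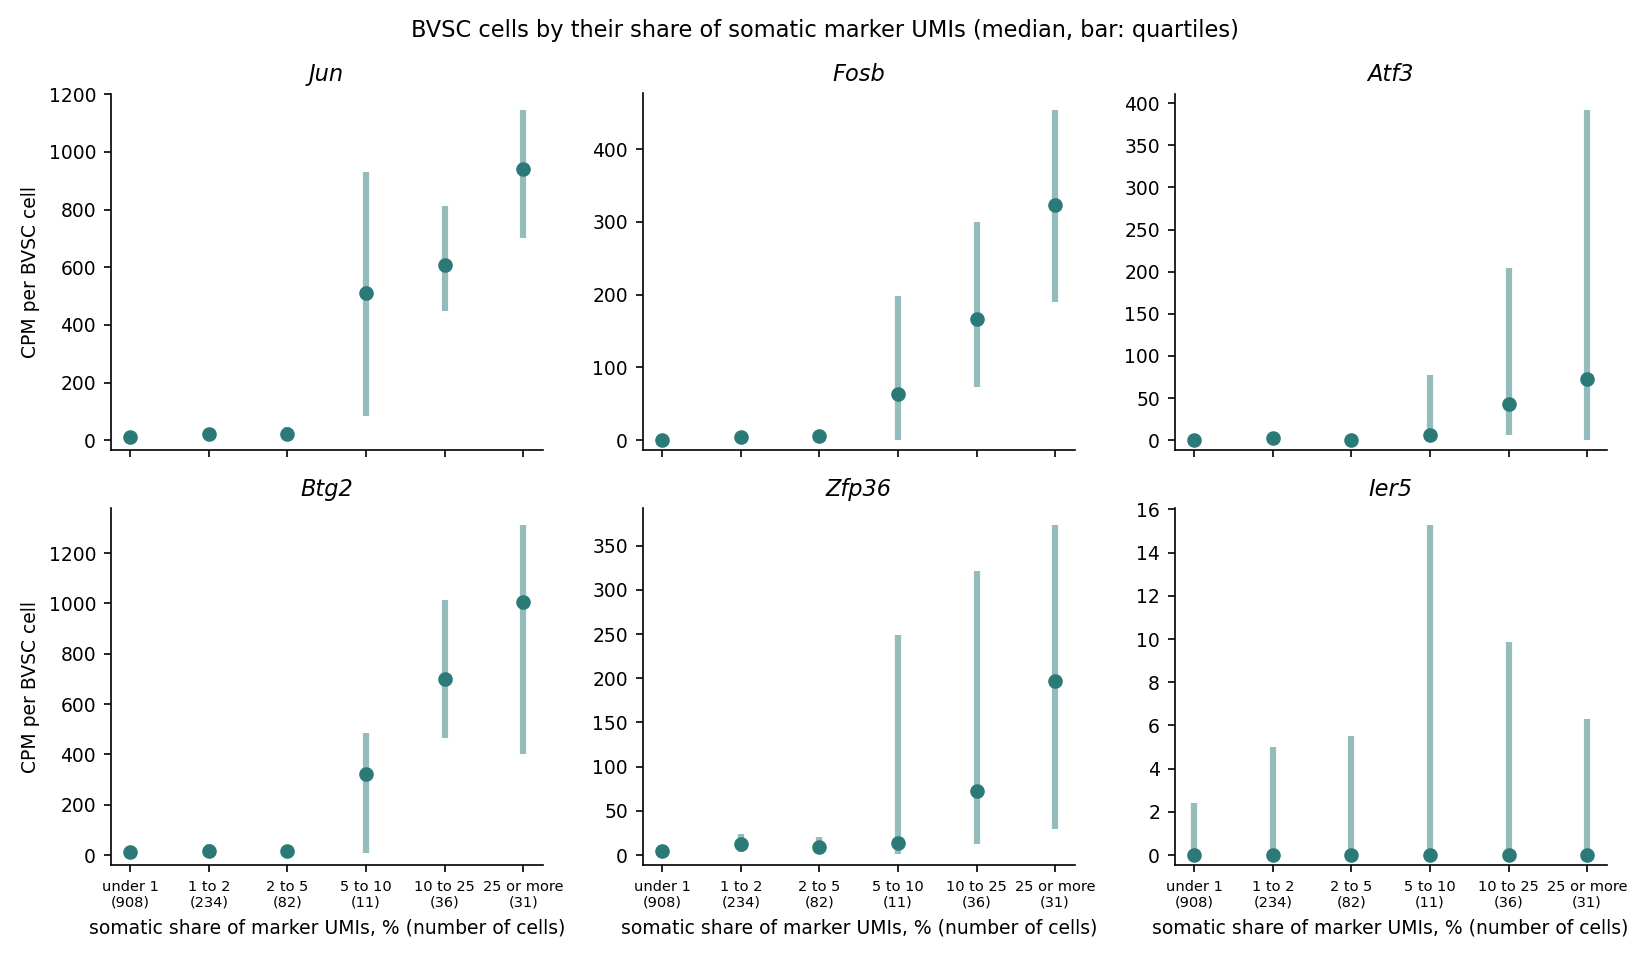
CPM per BVSC cell (median, with bars from the lower to the upper quartile, linear axes that differ between genes) against the somatic share of the cell's marker UMIs, with the number of cells in parentheses. Jun medians are 9.89 to 22.2 CPM in the 3 bins under 5% and 510 to 942 CPM in the 3 bins above.

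The 67 cells were unevenly spread over stages. They were 37 of 188 BVSC cells at E16.5 (19.7%) and 6.83% at E15.5, against 0.752% to 3.87% at the other 6 stages. Without them, the E16.5 BVSC pools held 83.6 and 47.2 CPM of Jun and 60.7 and 26.1 CPM of Btg2. The E16.5 log2 fold change was then -3.84 ± 0.63 (SE) for Jun and -4.52 ± 0.62 (SE) for Btg2. Atf3 passed the test as well, at -5.26 ± 1.45 (SE, edgeR adjusted p = 0.0073). Only BVSC cells rich in somatic marker UMIs were left out, which by itself lowers BVSC levels of genes high in Negative cells. The larger differences without them are therefore no independent support of a gate difference. The share of all genes called at E16.5 in that fit was not counted. Over all stages the BVSC mean without these cells was 30.5 ± 22.2 CPM for Jun and 32.4 ± 16.1 CPM for Btg2 (SD, n = 18), and the log2 fold changes were -4.72 for Jun, -5.52 for Fosb, -5.19 for Atf3, -4.53 for Btg2 and -4.07 for Zfp36. Ier5 stood at -0.67 (edgeR adjusted p = 0.146).

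At E16.5 the deposited cell names carry the letters C, D and P, whose meaning the sources used here do not give. In library 20, 53.1% of P cells, 28.1% of C cells and 0% of D cells (0 of 32) were above the somatic limit. In library 22 the shares were 19.4%, 13.3% and 3.23%. Jun followed the same order in library 20, with 453 CPM in P, 261 CPM in C and 62.7 CPM in D cells, and in library 22 with 205, 181 and 70.3 CPM. Without the cells above the limit, library 20 kept that order at 145, 88.8 and 62.7 CPM, while library 22 held 46.6, 55.1 and 41.1 CPM. The letters also occur at E13.5 to E15.5, where 5 libraries had BVSC cells of all 3, and Jun kept the order of P, C and D in library 10 alone. At E15.5 it was 56.1 CPM in P, 120 CPM in C and 19.96 CPM in D cells of library 16, and 5.66, 75.1 and 34.5 CPM in library 18. In library 18 the P value rests on 6 cells, against 30 cells of C and 31 of D.

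Because UMI counts per cell differed between gates and stages, shares of cells with a UMI were compared after thinning each cell to 20000 UMIs of the table, which left out 47 BVSC and 40 Negative cells. Jun was then seen in 48.5% of 1255 BVSC cells (exact 95% binomial interval 45.7% to 51.2%), against 96.5% of 489 Negative cells (94.5% to 98.0%). Btg2 was seen in 47.0% of BVSC cells and 96.9% of Negative cells, Zfp36 in 31.2% and 86.7%, Fosb in 23.4% and 91.2%, and Atf3 in 14.3% and 64.6%. The intervals of the gates overlapped for Ier5 alone, seen in 13.2% of BVSC cells (11.4% to 15.2%) and 11.9% of Negative cells (9.13% to 15.1%). Somatic markers, which germ cells should lack, were seen in 5.498% (Dcn), 9.32% (Col1a2), 15.8% (Col3a1) and 24.1% (Wt1) of the same BVSC cells. With all stages combined, the BVSC shares of Jun, Btg2 and Zfp36 exceeded all 4 of these, while those of Fosb, Atf3 and Ier5 lay within their range. Genes differed in their level in Negative pools, with means of 836 CPM for Btg2 and 14.8 CPM for Ier5. Shares of unlike genes therefore cannot separate any member from background in either direction, and the part of background in them was not tested. The BVSC shares varied with stage: Jun was seen in 11.51% of cells at E12.5 (Wt1 10.1%) and in 79.9% at E16.5 (Wt1 41.9%). Jun and Btg2 exceeded all 4 markers at each of the 8 stages, and Zfp36 at all but E18.5, where it stood at 25.8% and Wt1 at 28.0%. Fosb exceeded them at E11.5, E14.5, E15.5 and E16.5, Ier5 at E11.5 and E12.5, and Atf3 at no stage. Without thinning, Jun was seen in 80.95% of BVSC cells and 97.35% of Negative cells, at median depths of 248294 and 169412 UMIs. Intervals cover counting error only.

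**Figure D4:**
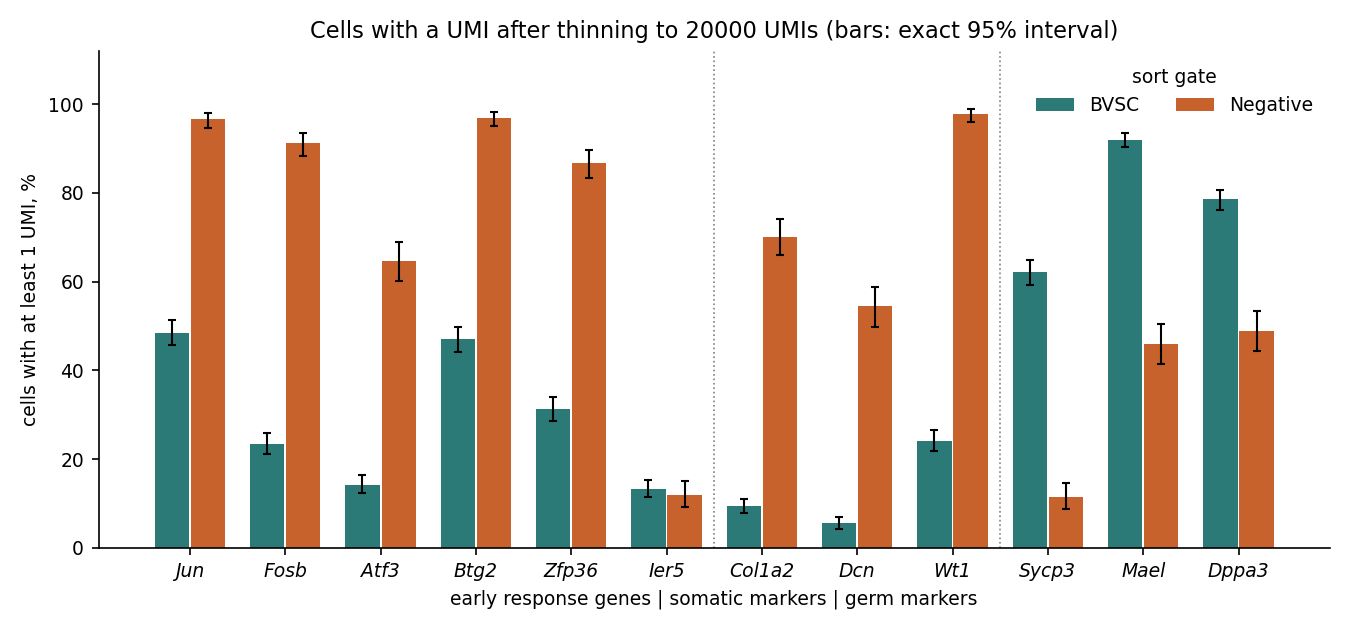
Percent of cells with at least 1 UMI after each cell was thinned to 20000 UMIs, for the 6 genes, 3 somatic markers and 3 germ markers, in BVSC cells (left bars) and Negative cells (right bars), with exact 95% binomial intervals. Jun is at 48.5% in BVSC cells and 96.5% in Negative cells, and Ier5 is at 13.2% and 11.9%.

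The share of a gene's counts that lay in few cells was also described. The 5% of cells with the most UMIs of a gene, rounded up to whole cells, held a median over pools of 46.1% of Jun counts in BVSC pools and 15.8% in Negative pools. Pools differed in cells and cells in depth, and few counts give a high share by themselves. The 1 Atf3 UMI in the BVSC pool of library 8 (E12.5) entered as 100%. The part of depth and of low counts in these shares was not tested. For Btg2 the values were 44.7% in BVSC pools and 18.1% in Negative pools, and for Atf3 they were 76.9% and 39.0%. Ier5 was concentrated in both gates, at 66.3% in BVSC pools and 80.7% in Negative pools, where the pool without an Ier5 UMI entered as 0%. Between cells of the same library, rank correlations in Negative cells (n = 529, which share depth within a cell) were 0.53 between Jun and Btg2 and 0.41 between Jun and Fosb. Ier5 stood at -0.05 to 0.12 with every other member there. In BVSC cells (n = 1302) the same pairs stood at 0.26 and 0.25.

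Late stages (E16.5 to E18.5) were set against early stages (E11.5 to E13.5) within each gate. In BVSC pools 3 members were higher at late stages, Jun, Fosb and Btg2, where 25.4% of all genes were called higher and 22.8% lower. Jun averaged 98.5 ± 82.3 CPM in late BVSC pools and 25.9 ± 22.3 CPM in early ones (SD, n = 6 each), a log2 fold change of 1.65 ± 0.31 (SE, edgeR adjusted p = 7.3e-05). Fosb averaged 27.1 ± 25.9 CPM in late and 7.11 ± 7.54 CPM in early BVSC pools (log2 fold change 1.35 ± 0.45, edgeR adjusted p = 0.0143). Btg2 averaged 91.2 ± 82.3 CPM in late and 33.5 ± 8.84 CPM in early BVSC pools (0.82 ± 0.31, edgeR adjusted p = 0.0292). Late and early pools overlapped for all 3 genes. Zfp36 (0.84 ± 0.37, edgeR adjusted p = 0.0595), Ier5 (0.40 ± 0.67) and Atf3 (-0.23 ± 0.80) did not pass. For Atf3 the means point the other way, 13.9 ± 21.6 CPM in late and 6.41 ± 6.57 CPM in early BVSC pools. Leaving out 1 library turned its sign, with values of -1.49 without library 26 and 2.26 without library 9.

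How far these changes rest on E16.5 and on the 67 cells differed by gene. Without those cells the log2 fold change was 1.49 ± 0.34 for Jun (edgeR adjusted p = 0.00058) and 1.21 ± 0.44 for Fosb (0.0219), but 0.29 ± 0.31 for Btg2 (0.475). Without E16.5, Jun alone still passed, at 0.98 ± 0.34 (0.0225), against 0.47 for Fosb (0.497) and 0.10 for Btg2 (0.864). With E18.5 set against E11.5 alone, Jun stood at -0.37 (0.654), Fosb at -1.51 (0.176) and Btg2 at 0.70 (0.367). With cells thinned to 20000 UMIs, Btg2 did not pass (0.65, edgeR adjusted p = 0.101). Btg2 lost its call without any one of libraries 3, 7, 20, 24 or 26 (edgeR adjusted p = 0.0507, 0.0543, 0.0694, 0.0798 and 0.221), and Fosb without library 24 (1.05, edgeR adjusted p = 0.0676). Zfp36 passed in BVSC pools without any one of 12 libraries and with DESeq2 size factors (1.06, edgeR adjusted p = 0.0186).

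Among late against early Negative pools, Zfp36 was the 1 member called, where 4.46% of all genes were called higher and 1.7% lower. It averaged 418 ± 154 CPM in late and 138 ± 82.4 CPM in early Negative pools (SD, n = 6 each), a log2 fold change of 1.61 ± 0.41 (SE, edgeR adjusted p = 0.0144). The lowest late pool held 222 CPM and the highest early pool 269 CPM. The call was lost without library 24 (1.41, edgeR adjusted p = 0.0578), without E16.5 (1.31, edgeR adjusted p = 0.0693) and with E18.5 set against E11.5 alone (1.44, edgeR adjusted p = 0.126). Btg2 (0.99 ± 0.33, edgeR adjusted p = 0.0689), Jun (0.87 ± 0.32, 0.103), Atf3 (1.61 ± 0.85, 0.269) and Fosb (0.79 ± 0.46, 0.324) had positive values that did not pass, and Ier5 stood at -0.53 ± 0.72 (0.826). Without library 6, Btg2 passed at 1.02 (0.0215), and with thinned cells it passed at 1.07 (0.0455). Ier5 stood at -3.80 without library 6. That run left library 26, with 0 Ier5 UMIs, as the only Negative pool of E18.5. The Ier5 value rests on that pool and cannot be read as a stage change. Without the filter on low counts Jun (0.70), Atf3 (1.46) and Btg2 (0.83) passed. Of the genes called, 72.4% were higher with TMM scaling and 59.5% with DESeq2 size factors.

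The difference of the 2 stage changes, BVSC minus Negative, was called for none of the 6 members by edgeR, where 5.88% of all genes were called higher and 11.9% lower. At an unadjusted p under 0.05 the count was also 0, as it was with DESeq2 after adjustment. The values were 0.78 ± 0.44 for Jun (adjusted p = 0.260), 0.56 ± 0.63 for Fosb, 0.93 ± 0.99 for Ier5, -0.17 ± 0.44 for Btg2, -0.78 ± 0.53 for Zfp36 and -1.84 ± 1.16 for Atf3 (0.46 without library 9). Hence a stage change that passed in one gate and not in the other is not shown to differ between them. Jun passed without library 1 (1.31, adjusted p = 0.0383) and without library 6 (1.30, 0.0371). Ier5 stood at 4.33 without library 6, again with a pool of 0 Ier5 UMIs (library 26) as the only Negative pool of E18.5. It cannot be read as a difference of stage changes. Without the filter on low counts Jun (1.07), Fosb (0.87) and Atf3 (-1.54) passed. Of the genes called, 33.0% were higher with TMM scaling and 51.2% with DESeq2 size factors.

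In the Negative gate, 12 clusters of cells were formed without the members and the other early response genes. Levels are given per cluster as the CPM of its summed cells, with no test. Clusters 2 and 10 were stroma-like (7 of 7 markers, among them Tcf21 and Col1a2), cluster 5 was pregranulosa-like (4 of 7, among them Wnt4 and Rspo1) and cluster 12 was immune-like (6 of 10, 6 cells). The others are called by number. Among them, cluster 7 passed 4 of 10 immune markers (C1qa, C1qb, C1qc and Lyz2) and 2 of 2 surface epithelium or mesothelium markers (Upk3b and Lrrn4). Cluster 6 passed 3 of 15 germ markers. Summed pregranulosa markers were 2222 CPM in cluster 5, and also 1967, 2089, 2100 and 1966 CPM in clusters 1, 4, 6 and 8. The name of cluster 5 therefore does not set it apart as the pregranulosa cells of the gate. Jun was high in clusters 1 to 10, at 515 to 990 CPM, with 965 and 913 CPM in the stroma-like clusters and 802 CPM in cluster 5. It was 404 CPM in the immune-like cluster. Btg2 was 530 to 1118 CPM in clusters 1 to 10, but 100 CPM in the immune-like cluster, in which Zfp36 was at its highest, 567 CPM.

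Clusters of Negative cells also differed in the other members. Zfp36 was lowest in cluster 6 (66.5 CPM) and cluster 3 (152 CPM), and 492.9 to 524 CPM in the stroma-like clusters. Cluster 6 (48 cells) was made mostly of cells from E11.5 and E12.5, and cluster 3 was led by genes of dividing cells such as Kif4 and Mcm10. Atf3 was 406 CPM in cluster 5, 388 CPM in cluster 7 and 381 CPM in cluster 4, and 80.2 CPM in cluster 8. Of the 50 cells of cluster 5, 43 came from E14.5 and 50% from 1 library. Those of cluster 8 came from E17.5 and E18.5. Negative pools averaged 407 CPM of Atf3 at E14.5, against 86.3 CPM at E17.5 and 141 CPM at E18.5, so cluster and stage cannot be told apart here. Cluster 8 had the oocyte genes Nobox, Figla and Lhx8 among its 10 leading genes and 5 of 15 germ markers (summed 833 CPM) beside 1797 CPM of early gonadal somatic markers, and the part of germ cell RNA in its levels was not tested. Ier5 was 0.326 CPM in cluster 8, 31.8 CPM in the stroma-like cluster 10 and 40.9 CPM in the immune-like cluster. Cluster 11 held 7 cells of 2 libraries that carried germ markers (12 of 15) in spite of the Negative gate. Their median levels were 69.1 CPM for Jun, 32.1 CPM for Btg2 and 28.5 CPM for Zfp36, against 906, 958 and 262 CPM in 508 other Negative cells whose markers matched the gate. A further 14 Negative cells outside cluster 11 had at least as many germ as somatic marker UMIs, and their medians were 667 CPM for Jun, 167 CPM for Btg2 and 101.2 CPM for Zfp36. They were a mixed set, with 4 cells each of clusters 3, 8 and 12 and 1 each of clusters 6 and 9. In the immune-like cluster 12 the early gonadal somatic markers summed to 149 CPM, so few somatic UMIs were enough to place a cell in this set.

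The BV gate at E14.5 lay on the BVSC side in 1 library and higher in the other. Jun was 186 and 33.7 CPM in the BV pools (15 cells of library 4 and 30 cells of library 5), against 52.2, 35.8, 17.8 and 27.3 CPM in the BVSC pools of that stage. Btg2 was 140 and 65.5 CPM in the BV pools, against 45.4, 67.7, 25.9 and 32.7 CPM in the BVSC pools. No member was called between BV and BVSC pools by edgeR (0.0408% of genes called higher, 0% lower), and the log2 fold change of Jun was 1.59 ± 0.49 (SE, adjusted p = 0.479). At an unadjusted p under 0.05 the count was 3 (Jun, Fosb and Btg2). Against Negative pools of the stage, 4 of 6 members were lower in BV pools, where 11.2% of all genes were called lower, with Jun at -3.03 ± 0.60 and Zfp36 at -4.16 ± 0.73 (SE, edgeR adjusted p = 0.000396 and 9.4e-05).

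Other genes of the early response were counted in lists that leave out the 6 members, to be read beside the 25.8% of all genes called lower and 38.7% called higher. Where a list's share is near these, as for the 3 of 12 upstream genes and 3 of 9 heat shock genes that were lower, it does not stand apart from all genes. The lists are incomplete, because only genes read from the count table could be tested. The table held 7 of 22 listed immediate early transcription factors, 14 of 27 feedback regulators and 10 of 16 secreted and matrix genes. The counts describe these genes and not the whole class. Of the 7 tested immediate early transcription factors, 6 were lower in BVSC pools and none higher, with the same counts under each scaling. Their median log2 fold change was -3.48, against 0.34 over all genes. Fosl2, another AP-1 subunit, averaged 3.41 CPM in BVSC and 55.1 CPM in Negative pools (-4.28 ± 0.40). Egr2, a zinc finger factor, averaged 8.83 and 109 CPM (-3.98 ± 0.55), and Klf4 averaged 12.1 and 149 CPM (-3.48 ± 0.43). Nr4a3, an orphan receptor, stood at -3.99 ± 0.89. Of 10 secreted and matrix genes, 6 were lower and 1 higher (median -2.53), with Cyr61, a matrix protein, at 19.5 CPM in BVSC and 464 CPM in Negative pools (-4.67 ± 0.33), Ereg at -4.91 ± 0.84 and Thbs1 at -3.79 ± 0.53. Areg, an EGF receptor ligand like Ereg, was the 1 higher gene (3.78 ± 1.00), at 2.87 CPM in BVSC and 0.892 CPM in Negative pools.

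Feedback and chaperone lists held genes called in both directions. Of 14 feedback regulators, 5 were lower and 2 higher in BVSC pools (median -0.49), led by Rgs2, which damps G protein signals, at 24.9 CPM in BVSC and 333 CPM in Negative pools (-4.25 ± 0.33). Ppp1r15a, which reverses the stress block of translation, was 33.6 CPM in BVSC and 190 CPM in Negative pools (-2.36 ± 0.19), whereas Dusp2, a MAP kinase phosphatase, was higher (1.99 ± 0.59). Of 9 heat shock genes, 3 were lower and 4 higher (median -0.09), with Hspb1 at -2.56 ± 0.39 and Bag3 at -2.09 ± 0.21, but Hspa4l at 2.64 ± 0.30 and Hsph1 at 1.29 ± 0.17. With DESeq2 size factors that list had 4 lower and 3 higher, and with deposited totals 5 lower and 4 higher.

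Partners and upstream genes of the members were counted in the same way. Of 11 AP-1 partners and related factors, 5 were lower and 1 higher in BVSC pools (median -1.23), with Ddit3 at -1.94 ± 0.33 and Nfe2l2 at -1.45 ± 0.19. Of 12 upstream kinases and factors, 3 were lower and 3 higher (median 0.23), with the ELK family gene Elk3 at -2.89 ± 0.45, Mapkapk2 at -1.55 ± 0.22 and Map3k5 at 1.65 ± 0.61. With the other 2 scalings 1 of them was higher and 3 were lower. Of 9 CCR4-NOT, BTG and Zfp36-related genes, 1 was lower and 6 higher (median 0.53), with the deadenylase subunits Cnot11 at 1.76 ± 0.19 and Cnot9 at 1.55 ± 0.14, and Btg1, a relative of Btg2, at -1.72 ± 0.16. The other scalings gave 4 or 5 higher and 2 lower in that list.

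At late against early stages in BVSC pools (25.4% of all genes higher, 22.8% lower, median log2 fold change 0.15), 3 of 7 immediate early transcription factors were higher and none lower (median 1.35), and of 11 AP-1 partners 3 were higher and 1 lower (median 0.91). With each of the other scalings 4 of 7 and 6 of 11 were higher. The 3 factors, Nr4a2, Nr4a3 and Egr4, were called from low levels. They averaged 6.82, 0.935 and 2.675 CPM in late and 0.307, 0.121 and 0.2905 CPM in early BVSC pools. The other lists were counted as 1 higher and 2 lower of 10 secreted and matrix genes, 3 and 5 of 9 heat shock genes, 1 and 4 of 12 upstream genes, and 1 and 4 of 9 CCR4-NOT and related genes, and no test compared the lists. Of 14 feedback regulators 2 were higher and 8 lower (median -0.90), or 6 lower with the other scalings, among them Dusp6, which switches off ERK, at 4.35 CPM in late and 82.1 CPM in early pools (-4.85 ± 0.54). Socs2 was 34.6 CPM in late and 286 CPM in early BVSC pools (-3.32 ± 0.35), and in Negative pools 109 CPM in late and 47.5 CPM in early ones (1.43 ± 0.36). The difference of the changes was called for Socs2 (-4.75 ± 0.51, edgeR adjusted p = 1.9e-07), for Gadd45b (-3.50 ± 0.56) and for Hspb1 (-3.69 ± 0.44). In Negative pools Egr2 was higher at late stages (3.08 ± 0.80), at 148 CPM in late and 43.3 CPM in early pools, and Cyr61 lower (-1.64 ± 0.42), at 225 CPM in late and 697 CPM in early pools.

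Over the 17 Negative pools, the genes whose log2(CPM + 1) ran most like the mean z-score of the 6 members were Pde8a (Pearson r = 0.88), Zdbf2 (0.82), Ccnl1 (0.80), Fbxw7 (0.80) and Dennd4c (0.77), out of 5249 genes at 10 CPM or more. These pools share stage and depth, and the values are a description. Pde8a, Zdbf2 and Fbxw7 were not low in germ cells: their log2 fold changes between BVSC and Negative pools were 1.06 ± 0.39, 1.68 ± 0.35 and 1.27 ± 0.19. Ccnl1 and Dennd4c stood at -0.78 ± 0.15 and -0.82 ± 0.22.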

How the data were processed

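The deposited values are raw UMI counts per gene and cell, made by the authors with a modified STRT-seq protocol that reads 3' ends, per the labels' protocols. STAR, UMI-tools, Subread with featureCounts, and CASAVA 1.8 are named in the submitters' processing notes, with mm10 as the build. How they were set is not given in the sources used here. As provided, the count table ended within a line after 16344 complete genes, which account per cell for 40.1% to 56.4% of the deposited UMIs (median 51.2%), and other genes were not analysed here. Stage, gate, library and UMI total come from the deposited cell table. Libraries are numbered 1 to 26.

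All 1881 cells were kept (median 214706 UMIs, 10016 to 948642). Counts were summed per library, stage and gate into pools of at least 5 cells, and CPM used the deposited totals. The quasi-likelihood test of edgeR 4.0.16 in R 4.3.3 (TMM, filterByExpr, Benjamini-Hochberg adjustment over 9805 genes, threshold 0.05) compared gates with stage as covariate. Stage contrasts came from a fit with a mean per stage and gate. SEs are the absolute log2 fold change over the square root of F. DESeq2 1.42.0 was an alternative. The scripts were tested on simulated data.

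Negative cells were clustered with scanpy 1.11.5 and leidenalg 0.10.2 (2000 variable genes, 30 components, 15 neighbours, resolution 1.0). A cluster was named only from at least 3 listed markers above 2 times their mean in other Negative cells plus 5 CPM. Sequences are from RefSeq (GRCm38.p6), found for all 6 members, and 3' UTRs and gene positions from the GRCm38 annotation.

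The members and gene lists were chosen with earlier results of these data known. Of each list, up to 4 called genes with the largest change were eligible for naming in a comparison, and the 5 genes most correlated with the members over Negative pools were named. Library as a replicate block was tried in the 10 libraries that hold both gates, where the pairing is by shared library.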

Additional observations from a re-analysis of the deposited data

Results flagged for a closer look

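Among the 6 early or 6 late pools of each gate, and the 4 BVSC pools of E14.5, a pool stood far from its neighbours in 6 of 30 groups checked. The rule flags about 1 in 20 groups when values are normal with 1 shared mean. Here CPM was not transformed, and early and late groups mix stages with unlike means. That rate therefore cannot be applied, and the 6 flags are not read as an excess over chance. The groups are not independent, since libraries 1 and 2 each stood apart for more than 1 gene. At early stages the BVSC pool of library 1 (E11.5) was highest for Fosb, at 21.7 CPM with the next at 8.31 CPM, and for Ier5, at 14.7 CPM with the next at 6.61 CPM. The Negative pool of library 2 (E11.5) was highest for Fosb, at 586.5 CPM with the next at 208 CPM, and for Ier5, at 118 CPM with the next at 10.7 CPM. At late stages the BVSC pool of library 20 (E16.5) was highest for Atf3, at 56.8 CPM with the next at 14.2 CPM. The Negative pool of library 6 (E18.5) was lowest for Btg2, at 478 CPM with the next at 984.5 CPM.

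Outside the comparisons, 5 BV cells at E11.5, all of library 2, held 42 germ and 93 somatic marker UMIs in sum (median 106237 UMIs per cell, 19206 to 135311). Their summed level exceeded every Negative pool for Jun (1442 CPM, highest Negative pool 1209 CPM), Fosb (784 and 648 CPM), Atf3 (886.5 and 672 CPM), Zfp36 (1012 and 668 CPM) and Ier5 (275 and 118 CPM). Btg2, at 801.5 CPM, did not exceed its highest Negative pool of 1382 CPM. These are cells of 1 library, and no test was made.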

How the results depend on the processing

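The difference between gates kept its direction and its side of the threshold for each of the 6 members under every alternative run. With library as a replicate block in 10 libraries it was -4.56 ± 0.23 (SE) for Jun, -5.20 for Fosb, -5.38 for Atf3, -4.46 for Btg2, -3.66 for Zfp36 and -0.14 for Ier5 (adjusted p = 0.873), and the block changed no call. Leaving out each library gave -4.27 to -4.01 for Jun and -0.75 to -0.28 for Ier5. TMM put the median log2 fold change of all genes between gates at 0.34, and DESeq2 size factors and deposited totals at 0.21. The share of cells with a UMI fell most with thinning: for BVSC and Negative cells to 48.45% and 96.5% (Jun), 23.4% and 91.2% (Fosb), 14.3% and 64.6% (Atf3), 47.0% and 96.9% (Btg2), 31.2% and 86.7% (Zfp36) and 13.2% and 11.9% (Ier5). In late against early BVSC pools, E18.5 against E11.5 reversed Jun (-0.37) and Fosb (-1.51), gave 997 genes higher and 1034 lower, and for the difference of the changes 252 higher and 549 lower. DESeq2 gave 726 genes higher and 419 lower in Negative pools and 1269 higher for the difference. Genes lower in Negative pools (167) were 368 without the filter on low counts and 288 without cells whose markers went against their gate. Leaving out each library gave 195 to 538 higher and 96 to 342 lower there, 712 to 1186 lower for the difference, and 3 to 5 members at E11.5, 1 to 4 at E16.5 and 3 to 4 at E17.5. Zfp36 in late BVSC pools passed under several scalings, at 1.06 with DESeq2 size factors and 1.08 with deposited totals. The cause of these shifts was not tested. Alternatives chosen after seeing the data leave out BVSC cells at 10% or more somatic marker UMIs, stage E16.5, or libraries 1 and 2 together. Ier5 had a median of 0 UMIs per cell in both gates, so its levels were read from pools.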
